A study of Homo sapiens with 6 samples.

Results

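The high mobility group (HMG) chromatin proteins were followed through 10 genes, HMGN1 to HMGN5, HMGB1 to HMGB3, HMGA1 and HMGA2, found by their gene symbol among 22411 genes that have a symbol of their own on the array. A feature is the probe set of 1 transcript cluster, that is, of 1 transcribed locus, and 9 of the 10 genes had 1 feature of their own. The feature of HMGA1 is also assigned to the pseudogene HMGA1P8 in the platform annotation, so its signal cannot be given to either and it is described apart. The rule selected features on their mean signal over all arrays, taking the brightest of a symbol, but no gene had more than 1, so that choice decided nothing and the difference between the groups did not enter it. Beside the parent genes stood 19 features named as their pseudogenes.

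The arrays were GeneChip Human Transcriptome Array 2.0 hybridisations of total RNA from H460, an established non-small cell lung cancer cell line. The study compared 3 control arrays, from H460 cells that received no radiation, with 3 arrays from H460 cells given 7 Gy, and the titles call the replicates of each group biological. When RNA was taken after irradiation is not stated in the labels used here, and both groups are of a single cell line. Array medians lay between 4.65 and 4.70 on the log2 scale, and Pearson correlations across features were 0.997 to 0.998 among control arrays, 0.995 to 0.996 among irradiated arrays and 0.994 to 0.995 between groups. Of the epithelial markers, KRT8, KRT18 and KRT19 had mean log2 signals of 10.86, 10.003 and 10.23, whereas the epithelial adhesion genes EPCAM and CDH1 were dim, at 4.04 and 5.15. The 23 background control features had means from 2.17 to 11.67 with a median of 3.74. Markers of fibroblasts, blood cells and endothelium had means from 2.88 to 6.46, so some of them were brighter than EPCAM and CDH1. They differed by -0.17 to 0.12 between the groups, with the lowest limma adjusted p (0.0875) for CD14.

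HMG proteins are small, abundant non-histone proteins that bind chromatin in 3 families. The HMGN proteins bind the nucleosome itself and loosen chromatin, the HMGB proteins bend DNA through HMG boxes, and the HMGA proteins grip the minor groove of AT-rich DNA through AT-hooks. Several of them compete with linker histone H1 for nucleosomes. HMGB1 also acts outside the cell as a danger signal released by damaged cells, and loss of nuclear HMGB1 and HMGB2 has been described in senescent cells.

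Signals of 4 HMG genes fell after irradiation. They were HMGN2 and HMGN5 of the nucleosome-binding family and HMGB1 and HMGB3 of the HMG-box family, with decreases of 1.57-fold, 1.43-fold, 1.40-fold and 1.27-fold. A call means an adjusted p under 0.05 in limma, a linear model with a moderated variance, with Benjamini-Hochberg adjustment over all 67528 transcript clusters. By that rule 4 of the 9 genes with their own feature were lower and 0 were higher, and 5 did not pass. The same rule called 2.80% of all transcript clusters lower and 2.25% higher, 5.05% in all. With 1 feature per gene symbol the shares were 5.52% lower and 3.65% higher. These shares are not matched on brightness, as the median gene signal was 5.86 and the 9 genes had means from 4.67 to 8.63. Among the 30324 transcript clusters with a mean of 5 or more, 2712 were called lower, as were 5 of the 8 HMG genes tested there. The median log2 difference, irradiated minus control, was -0.18 over the 9 genes and 0.01 over all genes. In 7 of the 9 genes all irradiated arrays lay below all control arrays, against 16.0% of all genes. The genes were listed with earlier results of these data known, so these counts describe the family and are no independent support. In RNA from whole cultures, fewer cells carrying a transcript and less of it per cell cannot be told apart.

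**Figure D1:**
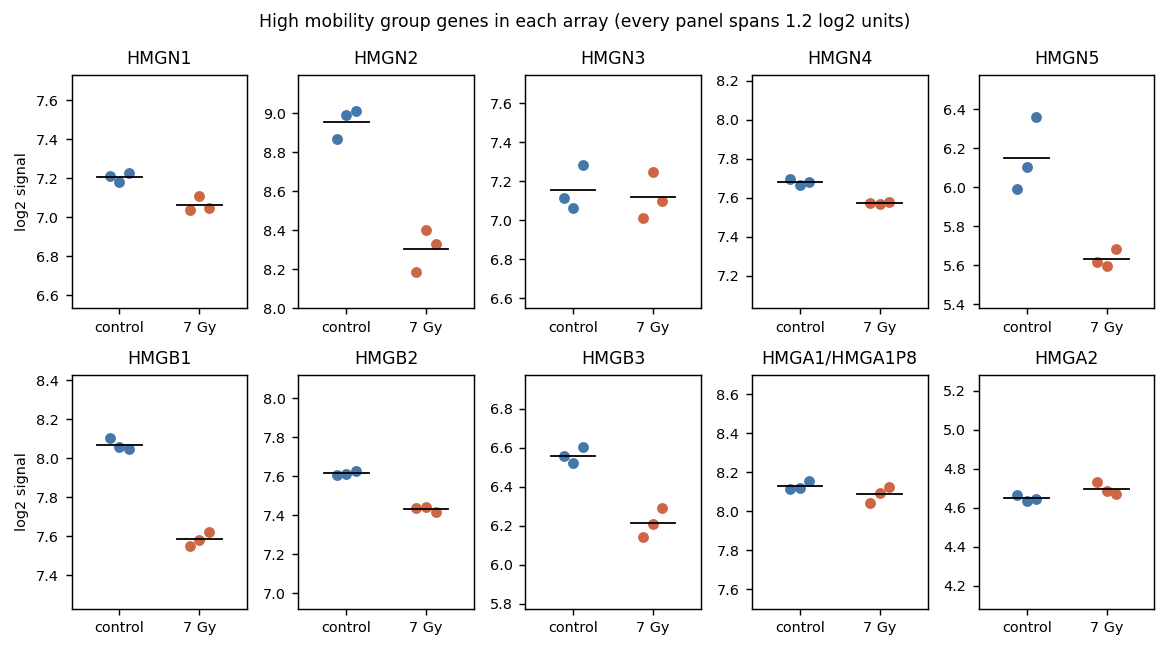
Log2 signal of each high mobility group gene in the 3 control arrays (blue) and the 3 irradiated arrays (orange), with the group mean as a bar; the panels have different centres and the same height in log2 units. HMGN2, HMGN5, HMGB1 and HMGB3 show the widest gaps between groups, HMGN3 and the joint HMGA1/HMGA1P8 feature overlap, and HMGA2 lies slightly higher after irradiation.

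HMGN2, on chromosome 1, encodes an abundant nucleosome-binding protein of the HMGN family. Its log2 signals were 8.87, 8.99 and 9.01 in the control arrays and 8.19, 8.40 and 8.33 in the irradiated arrays. All irradiated values lay below all control values, and irradiated 1 was the lowest. The mean went from 8.96 ± 0.077 to 8.31 ± 0.11 (SD, n = 3), a log2 difference of -0.65 (SE 0.070, limma adjusted p = 0.00327). Without irradiated 1 the difference was -0.59, and the call held on leaving out each of the 6 arrays in turn.

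HMGN5, on chromosome X, encodes an HMGN protein with a long acidic tail. Control signals were 5.99, 6.10 and 6.36 and irradiated signals 5.62, 5.60 and 5.68. The groups did not overlap, and control 3 stood above the other controls. The log2 difference was -0.52 (SE 0.093, limma adjusted p = 0.0236), and -0.42 without control 3. The call was lost on leaving out control 2 or any of the irradiated arrays (limma adjusted p 0.0620 to 0.0796) and with the unmoderated test (adjusted p = 0.127).

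HMGN1, on chromosome 21, is the close relative of HMGN2 and was first known as HMG14. It had 7.21, 7.18 and 7.23 in control and 7.04, 7.11 and 7.05 in irradiated arrays on the log2 scale. The groups did not overlap, but the difference of -0.14 (95% interval -0.25 to -0.04) did not pass (limma adjusted p = 0.149). HMGN4, a gene on chromosome 6 that is a retrocopy of HMGN2, had 7.69, 7.67 and 7.68 in control and 7.57, 7.57 and 7.58 in irradiated arrays. These small gaps gave a log2 difference of -0.11 (95% interval -0.20 to -0.01), which did not pass (limma adjusted p = 0.216). It passed in the unmoderated test (adjusted p = 0.0188), where the variance is taken from the 6 arrays of that feature alone. HMGN3, also on chromosome 6 and known as a partner of thyroid hormone receptor (TRIP7), had overlapping groups, with 7.12, 7.06 and 7.28 in control and 7.01, 7.25 and 7.10 in irradiated arrays. Its difference was -0.03 (95% interval -0.23 to 0.16), and the antisense RNA HMGN3-AS1 differed by 0.07 at a mean signal of 4.11 without passing.

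HMGB1, on chromosome 13, encodes the best known HMG-box protein, a DNA-bending factor in the nucleus and an alarm signal outside the cell. Its log2 signals were 8.10, 8.06 and 8.05 in control arrays and 7.55, 7.58 and 7.62 in irradiated arrays. Replicates were close together and the groups lay well apart. The mean went from 8.07 ± 0.030 to 7.58 ± 0.034 (SD, n = 3), a log2 difference of -0.49 (SE 0.045, limma adjusted p = 0.00174). This call held without each of the 6 arrays, with differences from -0.50 to -0.47.

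HMGB3, on chromosome X, is a relative of HMGB1 known from stem and progenitor cells. Signals were 6.56, 6.52 and 6.60 in control and 6.14, 6.21 and 6.29 in irradiated arrays, without overlap. The log2 difference was -0.34 (SE 0.054, limma adjusted p = 0.0138). The call was lost without control 1, control 3 or irradiated 2 (limma adjusted p 0.0512 to 0.0641) and in the unmoderated test (adjusted p = 0.0556).

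HMGB2, on chromosome 4, is the HMG-box protein most tied to dividing cells. It had 7.61, 7.61 and 7.63 in control and 7.44, 7.45 and 7.42 in irradiated arrays. The groups were separate and the spread small, with SDs of 0.011 and 0.015. The log2 difference of -0.18 (95% interval -0.28 to -0.09) did not pass in the limma fit (adjusted p = 0.0520). It passed under 4 of 8 alternative settings with all arrays, among them the trended variance (limma adjusted p = 0.0187). The 8 include the mean of a gene's features, which could not change the result for a gene with 1 feature. HMGB2 passed under 0 of the 6 fits without 1 array.

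The HMGA family had no call. HMGA2, on chromosome 12, is an oncofetal gene whose messenger RNA is a classic let-7 microRNA target. Its signals were 4.67, 4.63 and 4.64 in control and 4.73, 4.69 and 4.67 in irradiated arrays. The irradiated values all lay above the control values, by 0.05 on average (95% interval -0.05 to 0.15, limma adjusted p = 0.621). HMGA2 was the dimmest of the 9 genes, and whether it was detected was not settled. The means of all 9, from 4.67 to 8.63, lie within the range of the background controls. That range therefore cannot settle detection for any of them. The joint feature of HMGA1 and HMGA1P8 had 8.11, 8.12 and 8.16 in control and 8.04, 8.09 and 8.12 in irradiated arrays, with overlapping groups. Its difference was -0.04 (95% interval -0.15 to 0.06, limma adjusted p = 0.680).

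Processed pseudogenes are genomic copies of a messenger RNA, and the HMG genes are known for having many. Of the 19 pseudogene features, 8 were lower, 0 were higher and 11 did not pass, against 2.75% lower and 1.24% higher among 1855 features of annotated pseudogenes. Those 1855 had a median signal of 4.98, dimmer than each of the 8, so these shares are not matched on brightness. All 8 belong to the parents HMGN2 and HMGB1, which themselves fell. Probes for such a copy can bind the parent's RNA, so parent and copy cannot be told apart here, and the 8 are not 8 separate observations. None of the parent or pseudogene features had values identical to those of another feature.

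Of 7 HMGN2 pseudogene features, 6 fell. The differences were -0.57 for HMGN2P17, -0.60 for HMGN2P11, -0.69 for HMGN2P15, -0.70 for HMGN2P28, -0.71 for HMGN2P25 and -0.77 for HMGN2P18, beside -0.65 for HMGN2 itself (limma adjusted p from 0.000850 to 0.00682). HMGN2P25, for example, had 9.08, 8.94 and 9.06 in control and 8.27, 8.38 and 8.30 in irradiated arrays. HMGN2P18 had 8.02, 7.99 and 8.06 in control and 7.02, 7.30 and 7.44 in irradiated arrays, the widest irradiated spread of the 6. Over the 6 arrays these features followed HMGN2 with Pearson r from 0.966 to 0.992, given as a description since the group difference enters it. HMGN2P46, which the reference annotates as a transcribed pseudogene on chromosome 15, had 4.53, 4.47 and 4.58 in control and 4.53, 4.64 and 4.71 in irradiated arrays. Its difference was 0.10 (95% interval -0.04 to 0.25) and it did not pass.

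HMGB1P5 had 10.30, 10.22 and 10.31 in control and 9.57, 9.57 and 9.67 in irradiated arrays. HMGB1P4 had 8.92, 8.84 and 8.94 in control and 8.16, 8.29 and 8.37 in irradiated arrays. Neither feature had overlapping groups, and the log2 differences were -0.67 (SE 0.052, limma adjusted p = 0.000999) and -0.63 (SE 0.064, limma adjusted p = 0.00272), beside -0.49 for HMGB1. HMGB1P24 had a difference of -0.14 (95% interval -0.30 to 0.03) and did not pass.

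The other parents had pseudogene features that did not pass. For HMGN1 the brightest was HMGN1P30, with a difference of -0.24 (95% interval -0.43 to -0.05, limma adjusted p = 0.167), and HMGN1P38 had -0.23 and HMGN1P37 had 0.00. For HMGB3, which was called lower, the brightest was HMGB3P22 at -0.04 (95% interval -0.23 to 0.15), and HMGB3P1 and HMGB3P30 had -0.11 and 0.09. For HMGA1 the brightest was HMGA1P1 at -0.01 (95% interval -0.24 to 0.21), and HMGA1P7 and HMGA1P4 had -0.03 and 0.11. The mean signals of the 8 called features ran from 6.62 to 9.94 and those of the 11 others from 3.63 to 7.53. Irradiated 1 was the lowest irradiated array in 3 of the 4 genes that fell and in 7 of the 8 pseudogene features that fell, and all 8 pseudogene calls held without each of the 6 arrays.

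**Figure D2:**
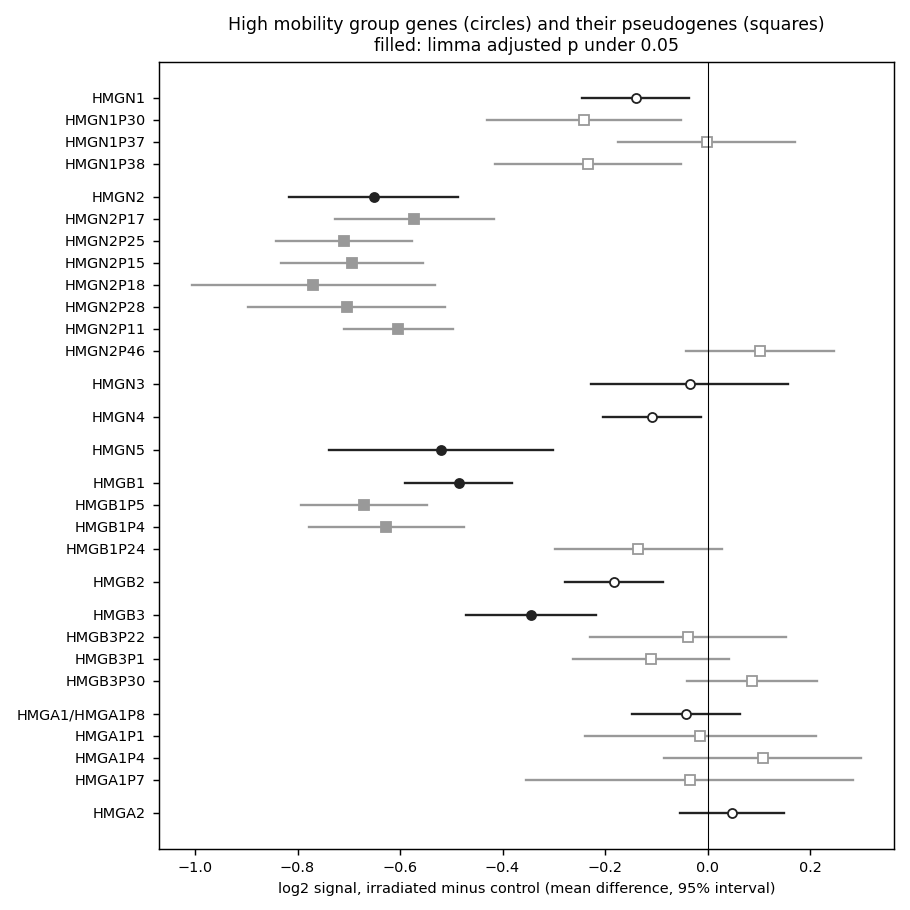
Log2 difference, irradiated minus control, with its 95% interval for each high mobility group gene (circles) and its pseudogene features (squares, brightest first), filled where limma's adjusted p was under 0.05. The 6 HMGN2 and 2 HMGB1 pseudogene features that were called run from -0.77 to -0.57. Those of HMGN2 lie around their parent and those of HMGB1 lie lower than theirs. The pseudogene features of HMGN1, HMGB3 and HMGA1 have open symbols.

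**Figure D3:**
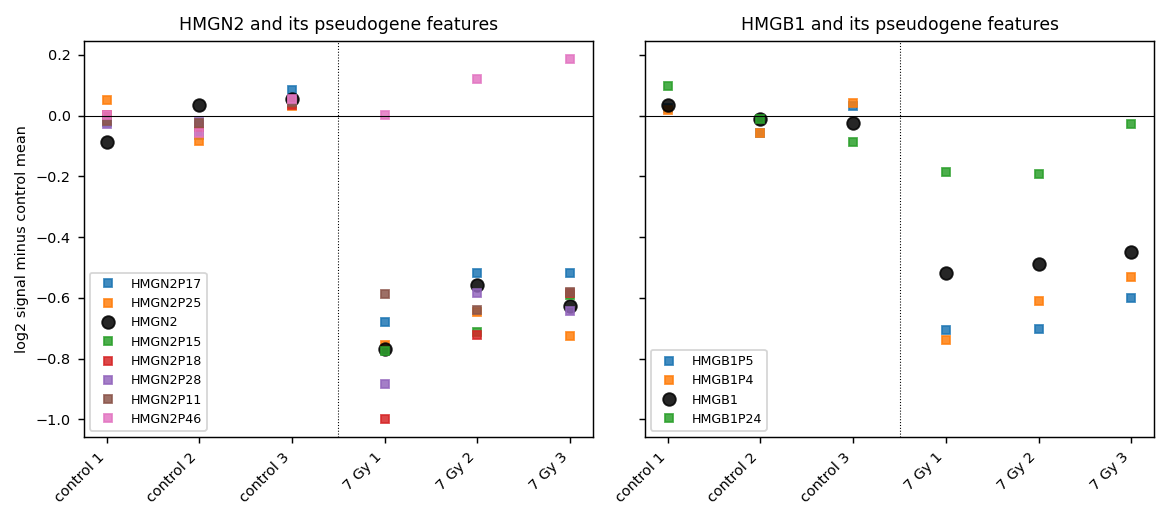
Log2 signal minus the control mean for HMGN2, HMGB1 (black circles) and their pseudogene features (coloured squares) in each of the 6 arrays. In the irradiated arrays the called features lie below 0 with their parent, whereas HMGN2P46 lies at or above 0 and HMGB1P24 just below it.

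The starts of the 4 genes that fell are shown as the sequence context of these genes. RefSeq promoter windows (GRCh38.p14) run from 250 bases before to 50 bases after an annotated start. There were 12 windows of 8 of the 10 genes. The windows were searched on both strands for CCAAT, the NF-Y site, for TTTGAA, the cell cycle homology region (CHR), and for TTTNNCGC, a form of the E2F site, each counted on its own. CCAAT was in 8 of the 12 windows, of 6 genes, against 34.6% of all 35116 windows. TTTGAA was in 2 windows, of HMGB1 and HMGB3, against 15.2% of all windows. TTTNNCGC was in 0 of the 12, against 6.89% of all windows. For each gene that fell, its window, or where it has several the one with the most CCAAT matches, is printed 5′ to 3′ on the gene's strand. Capitals mark matches to any of the 3 motifs on either strand. The windows are HMGN2 (chr1:26472190-26472489, plus strand), HMGN5 (chrX:81201864-81202163, minus strand), HMGB1 (chr13:30465887-30466186, minus strand, 1 of 3 windows) and HMGB3 (chrX:150983085-150983384, plus strand, 1 of 2 windows).
HMGN2: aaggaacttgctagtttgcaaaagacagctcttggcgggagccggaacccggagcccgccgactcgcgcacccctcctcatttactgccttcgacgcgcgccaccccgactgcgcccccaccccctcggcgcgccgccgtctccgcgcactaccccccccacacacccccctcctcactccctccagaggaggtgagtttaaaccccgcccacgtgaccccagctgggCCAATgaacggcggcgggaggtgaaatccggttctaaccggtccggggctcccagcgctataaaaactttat
HMGN5: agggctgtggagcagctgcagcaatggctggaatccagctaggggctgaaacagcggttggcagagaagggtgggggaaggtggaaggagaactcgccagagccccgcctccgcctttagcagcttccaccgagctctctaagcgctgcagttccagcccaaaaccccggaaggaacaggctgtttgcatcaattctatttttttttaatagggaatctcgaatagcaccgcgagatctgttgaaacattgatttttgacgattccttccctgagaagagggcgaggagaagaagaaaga
HMGB1: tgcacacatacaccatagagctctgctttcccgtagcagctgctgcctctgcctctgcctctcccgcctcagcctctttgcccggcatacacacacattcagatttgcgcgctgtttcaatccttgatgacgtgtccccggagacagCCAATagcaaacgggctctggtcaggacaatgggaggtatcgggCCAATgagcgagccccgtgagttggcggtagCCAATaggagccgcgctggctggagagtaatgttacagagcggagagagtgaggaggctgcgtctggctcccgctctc
HMGB3: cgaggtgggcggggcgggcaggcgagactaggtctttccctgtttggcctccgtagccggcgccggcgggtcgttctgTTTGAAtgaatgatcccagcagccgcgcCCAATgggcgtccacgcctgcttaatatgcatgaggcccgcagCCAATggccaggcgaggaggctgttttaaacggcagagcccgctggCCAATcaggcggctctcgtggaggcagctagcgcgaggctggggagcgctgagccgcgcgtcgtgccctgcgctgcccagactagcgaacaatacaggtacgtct
There was 1 CCAAT match in the HMGN2 window and there were 3 in each of the HMGB1 and HMGB3 windows, which were chosen for that count. The other HMGB1 windows held 1 and 0 CCAAT matches and the other HMGB3 window 0. The printed HMGB3 window also holds 1 TTTGAA, whereas that of HMGB1 lies in a window not printed. The HMGN5 window held none of the motifs. HMGN1 and HMGN3, which did not pass, also had 2 CCAAT matches each. HMGA1, whose joint feature did not pass, had 1 in each of its 2 windows, and HMGN4, which did not pass either, had 0. These are matches of letters, and binding was not measured.

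Genes around the HMG proteins were taken from lists, whose counts stand beside the 5.52% of all genes called lower and 3.65% called higher. These shares are not matched to the lists on brightness. Linker histones share nucleosome sites with HMG proteins, and 5 of 7 measured linker histone genes fell, 0 rose and 2 did not pass, with a median log2 difference of -0.51. H1-4 went from 11.38 ± 0.056 to 10.40 ± 0.057 (SD, n = 3; log2 difference -0.98, limma adjusted p = 0.000315), H1-3 fell by 1.00, H1-2 by 0.64 and H1-5 by 0.51 on the log2 scale. H1-1, outside the naming rule, fell by 0.22. H1-3, H1-5 and H1-1 were dim, with mean log2 signals of 4.70, 4.10 and 4.15, and were not tested with a minimum mean of 5. The call of H1-5 was lost without control 2 or irradiated 3 (limma adjusted p up to 0.0578). Without 1 array, 3 or 4 linker histone genes were called.

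Among 10 measured genes of nuclear architecture, 5 fell, 0 rose and 5 did not pass, with a median of -0.26. LMNB1, the lamin B1 gene, fell by 0.97, the histone variant gene H2AZ1 by 0.90, LBR, the lamin B receptor gene, by 0.73 and CBX3, the gene of heterochromatin protein HP1 gamma, by 0.43 on the log2 scale (limma adjusted p from 0.000161 to 0.00871). The other call was EZH2, the Polycomb methyltransferase gene, at -0.33, named after its value was seen. The 10 members all had negative differences. CBX3 lost its call in the unmoderated test (adjusted p = 0.0541), and 4 or 5 of the 10 were called without 1 array.

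Other genes whose proteins hold an HMG box went both ways, with 4 lower, 6 higher and 14 not passing among 24 measured, and a median of 0.00. WDHD1, a replication fork protein gene, fell by 0.68 and SSRP1, a subunit of the histone chaperone FACT, by 0.56 on the log2 scale. The transcription factor genes SOX4 and SOX9 rose by 0.57 (SE 0.067) and 0.42 (SE 0.055). These 4 calls held without each of the 6 arrays, but the count of calls in this list was 4 or 5 without 1 array and 4 with a replicate block. The balance of directions also moved, with 3 higher and 4 lower under median centring and 3 higher and 5 lower in the unmoderated test.

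The SET complex holds HMGB2 in the cell, and 2 of 4 other measured members fell. SET fell by 0.26 and ANP32A by 0.32 on the log2 scale (limma adjusted p = 0.0310 and 0.0469), and neither call held in any of the 6 fits without 1 array, where limma's adjusted p reached 0.109 and 0.140. APEX1 and NME1 had -0.17 and -0.14 and did not pass. Of 6 measured genes for receptors and a partner of extracellular HMGB1, 0 were called by limma, 0 had an unadjusted p under 0.05, and 0 were called with the trended or the unmoderated variance. Only 1 of the 6 was tested with a minimum mean of 5, so whether the others were detected was not settled. AGER, the RAGE receptor gene, had a mean of 5.66 and a difference of -0.01 (95% interval -0.11 to 0.09), and CXCR4 had 4.89 and -0.06 (95% interval -0.26 to 0.13).

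HMGA2 messenger RNA is held down by let-7, and LIN28 proteins block let-7 maturation. All 12 let-7 family genes listed carry the same seed, bases 2 to 8, which pairs with target messenger RNAs. The seed is shown in capitals in 3 of the 9 distinct mature forms (RefSeq, GRCh38.p14), the form of the gene that was called and a pair that differ from it outside the seed.
hsa-let-7i-5p: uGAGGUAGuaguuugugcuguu
hsa-let-7a-5p: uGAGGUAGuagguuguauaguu
hsa-miR-98-5p: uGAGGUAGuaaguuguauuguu
The array reads transcripts of these loci, not the mature microRNA. Of 10 measured let-7 genes, 1 was lower, 0 were higher and 9 did not pass, with a median log2 difference of 0.08. Only 2 of the 10 were tested with a minimum mean of 5, so whether the dimmer ones were detected was not settled. MIRLET7I had 7.30, 7.42 and 7.23 in control and 6.91, 7.00 and 6.99 in irradiated arrays, without overlap. Its difference was -0.35 (SE 0.062, limma adjusted p = 0.0215), and of the 6 fits without 1 array only that without control 3 kept the call (limma adjusted p 0.0559 to 0.0834 in the others). Of the 5 LIN28 and IGF2BP genes, 0 were called by limma, 0 had an unadjusted p under 0.05, and 0 were called with the trended or the unmoderated variance. LIN28A and LIN28B were dim, with means of 4.10 and 3.83, so whether they were detected was not settled. IGF2BP3 and IGF2BP1, RNA-binding proteins of the same oncofetal programme, had means of 7.13 and 5.69 and differences of 0.02 and 0.02, whose signs turned in 1 or more alternatives.

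**Figure D4:**
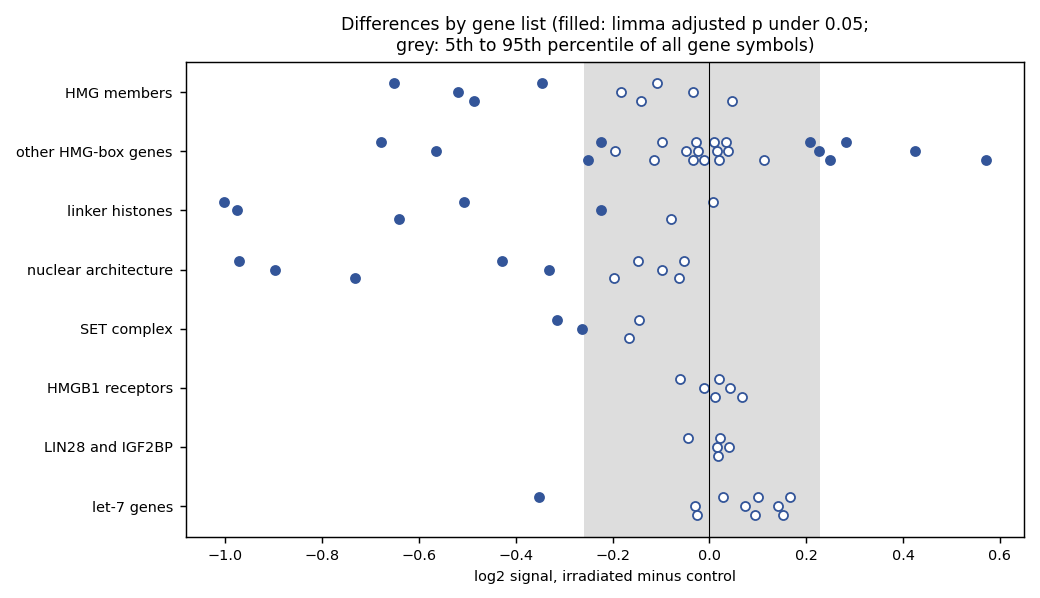
Log2 differences, irradiated minus control, of the 9 high mobility group genes with their own feature and of the genes in 7 related lists, filled where limma's adjusted p was under 0.05. The grey band holds the 5th to 95th percentile of all gene symbols, from -0.26 to 0.23; filled symbols below it are 4 high mobility group, 4 linker histone, 5 nuclear architecture, 2 other HMG-box, 2 SET complex genes and 1 let-7 gene, and those above it are 4 other HMG-box genes.

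The genes most like the leading member of each family were those with the smallest Euclidean distance between values centred over the 6 arrays, among 10469 genes with a mean log2 signal of 6 or more. For HMGN2 they were MT1CP, a metallothionein pseudogene, RNASEH2A, the catalytic subunit of ribonuclease H2, and CDCA7, with differences of -0.64, -0.68 and -0.69 and Pearson r of 0.995, 0.991 and 0.992. For HMGB1 they were KIF23, a kinesin of cytokinesis, XRCC5, which encodes Ku80 of DNA end joining, and SLC29A1, a nucleoside transporter gene, with differences of -0.49, -0.50 and -0.48 and r of 0.998, 0.997 and 0.996. HMGA2, the only HMGA gene with a feature of its own, had a mean of 4.67, so genes as dim as HMGA2 were not compared. Its closest genes were TMEM25, BCL2L13 and HAND2, with r of 0.964, 0.954 and 0.953. Their differences of 0.05, 0.05 and 0.06 did not pass, and neither did that of HMGA2. These are descriptions over 6 arrays, of genes picked on the same values that give r. For HMGN2 and HMGB1 the called group difference also enters them.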

How the data were processed

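Per the labels' protocols, TRIzol served to extract the RNA and biotin to label it. The authors deposited 1 log2 signal per feature and array, which was analysed unchanged. The sample descriptions in the labels speak of an RMA gene signal and the submitters' processing notes of MAS5, without a version. Which was used is not settled, though the values range like RMA output. The annotation build is not stated in the labels. Depth does not apply to arrays, whose number sets the precision.

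Of 70523 features, the 67528 transcript clusters were tested. Of these, 23781 had 1 platform symbol, of which RefSeq (GRCh38.p14) held 23777 and supplied current names, and 1543 had several and were not named. The groups were compared with limma 3.58.1 in R 4.3.3 (lmFit, eBayes, two-sided, Benjamini-Hochberg), tested on simulated data. Nothing in the titles says that replicates came from separate cultures beyond the word biological, and p-values measure the spread between these arrays.

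The members, lists and tests were chosen with earlier results of these data known. Named are all 10 genes, called pseudogene features and the brightest per parent, up to 4 called genes per list by size (otherwise the 2 brightest) and 3 genes most like the leading member of each family. Other names were chosen after their values were seen. Alternatives were all features, a minimum mean of 5, trended and unmoderated variances, quantile and median normalization, the mean of a gene's features, a replicate block and leaving out each array.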

Additional observations from a re-analysis of the deposited data

How the results depend on the processing

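HMGN2 and HMGB1 stayed lower and called under all 14 alternatives run. Of these, the mean of a gene's features could not change either result, because each gene had 1 feature. The 4 calls among HMG genes became 2 to 3 without 1 array, and 5 with a mean signal of 5 or more, with the trended variance or with median centring, where HMGB2 passed too. The unmoderated test also called 4, but these were HMGN2, HMGN4, HMGB1 and HMGB2. The 8 pseudogene calls were 8 without each array and 6 in the unmoderated test, where HMGN2P18 and HMGN2P28 did not pass (adjusted p = 0.0717 and 0.0511). H1-3, H1-5, CBX3, MT1CP, SET, ANP32A and MIRLET7I lost their calls in that test as well, and the last 3 and CBX3 also with the replicate block.

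Over all transcript clusters 3411 were called, and 1559 to 2379 without 1 array. A minimum mean of 5 gave 4841. Same-numbered arrays did not deviate together (r from -0.0726 to -0.0106). With 3 arrays per group this does not settle whether equal numbers mark paired samples. With the replicate block the count was 1598, other HMG-box genes had 4 calls in place of 10, nuclear architecture genes 3 in place of 5, SET complex genes 0 in place of 2 and let-7 genes 0 in place of 1, and HMG genes still had 4.

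The unmoderated test called 2 linker histone genes, 1 SET complex gene, 0 let-7 genes and 3 nuclear architecture genes. The minimum mean of 5 left 3 linker histone genes to test, of which 2 were called, and 1 SET complex gene was called when all features were tested. Without 1 array the counts ran from 4 to 5 for other HMG-box genes, 3 to 4 for linker histones, 0 to 0 for the SET complex, 0 to 1 for let-7 genes and 4 to 5 for nuclear architecture genes.

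Some differences near 0, none of them called, changed sign without 1 array, where HMGN3 ran from -0.098 to 0.030, HMGB3P22 from -0.11 to 0.047, HMGA1P7 from -0.19 to 0.052, HMGA1P1 from -0.11 to 0.087, HMGN1P37 from -0.069 to 0.066, AGER from -0.028 to 0.0012, IGF2BP3 from -0.017 to 0.060 and IGF2BP1 from -0.024 to 0.061. HMGA1P1 was 0.0047 with quantile normalization and IGF2BP1 was -0.0012 with median centring. The causes were not tested. The fits without 1 array have fewer samples.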
